A study of Mus musculus with 30 samples.

Results

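The clustered protocadherins are cell adhesion proteins of the cadherin superfamily whose genes stand side by side in the alpha, beta and gamma clusters. Members were taken by their mouse symbol, as every gene named Pcdha, Pcdhb, Pcdhga or Pcdhgb with a number, together with Pcdhac1, Pcdhac2, Pcdhgc3, Pcdhgc4 and Pcdhgc5. This gave 58 of the 19737 genes in the deposited table, of which 14 belong to the alpha, 22 to the beta and 22 to the gamma cluster.

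Each variable exon of these clusters encodes the cadherin repeats that reach outside the cell, the membrane span and a short tail. In the alpha and gamma clusters it is spliced to constant exons that all members of the cluster share, whereas beta genes have no constant exons. Single neurons are known to use an apparently random subset of variable promoters, selected through DNA methylation and loops made by CTCF and cohesin, and the proteins bind copies of themselves on facing membranes, which lets the branches of one neuron recognise and avoid each other. The C-type genes, the last of the alpha and gamma clusters, are used by most neurons.

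RNA was measured in whole brains of male C57BL/6N mice by sequencing of 30 libraries, 1 per mouse, in 6 groups of 5. Arid1b encodes a subunit of the BAF chromatin remodelling complex, and Arid1b+/- mice (HT) carried a constitutive CRISPR deletion of its exon 5 on 1 allele, in every cell, from a heterozygous father and a wild-type (WT) mother. At postnatal day 10 (P10) there were 5 P10-WT and 5 P10-HT mice, which received no drug. At P120 there were 5 WT-Veh, 5 HT-Veh, 5 WT-Flx and 5 HT-Flx mice. Their dams drank water with 0.2% saccharin alone (Veh) or with 0.1 mg/ml of the serotonin reuptake inhibitor fluoxetine as well (Flx) from P3 to P21, so the pups received the drug through the milk, and the adults were studied long after it had ended.

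The values are counts that the authors estimated and normalized, so a library's depth is unknown and the spread between mice is the only error given. Library sums of these values ranged from 31579000 to 41801000, and between 17266 and 18006 genes had a value of 10 or more. The targeted gene Arid1b had 3164 to 3309 normalized counts in P10-WT and 2162 to 2334 in P10-HT, and 2961 to 3392 in WT-Flx against 2164 to 2616 in HT-Flx. In the vehicle groups the library labelled HT-Veh replicate 2 had 3361 and that labelled WT-Veh replicate 2 had 2320, which goes against both labels. Total counts of members called that rest on them are given with and without them. Counts by cluster, in gene lists, shared between age comparisons or after a correction for GC content and length are not. The 6 neuronal markers summed to 97895 or more in every library. In whole-brain RNA fewer cells of a type and less RNA per cell cannot be told apart.

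All 58 genes lie on chromosome 18 and are read from its plus strand (GRCm38). The alpha cluster spans 36930184 to 37187661, the beta cluster 37264938 to 37524479 and the gamma cluster 37661793 to 37841873. Alpha and gamma transcripts have 4 exons and beta transcripts a single one. Of the length of an alpha transcript a median of 53.5% lies in exons shared with other members, against 44.9% for gamma, and the only beta genes with shared exonic sequence are Pcdhb21 and Pcdhb22, at up to 9.67%. A median of 36.4% of the 31-base words of an alpha transcript, 88.2% of a beta and 53.3% of a gamma transcript occur in no other gene. Levels of single alpha and gamma genes therefore rest in part on how the authors' estimation divided reads from the constant exons. For Pcdha4 2.18% of the words were found in no other gene, so its level is uncertain. GC content also separated the clusters, from 46.5 to 49.8% in alpha, 39.1 to 49.0% in beta and 51.0 to 55.4% in gamma transcripts.

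Per length of transcript the C-type genes stood highest. Averaged over the 6 groups, Pcdhgc3 had 1475 normalized counts per kb, Pcdhgc5 1011, Pcdhgc4 810 and Pcdhac2 428, which were the 4 highest of the 58. The fifth C-type gene, Pcdhac1, had 42.9 and ranked 43rd. Of the genes that single neurons choose among, Pcdhga11 had 323 per kb, Pcdhgb6 293 and Pcdhga12 271. The highest beta gene, Pcdhb9, had 141 per kb, and the highest alpha gene apart from Pcdhac2, Pcdha12, had 113. At the low end were Pcdhb1 with 1.98, Pcdha8 with 7.97 and, in the gamma cluster, Pcdhgb8 with 48.8, which the annotation calls a polymorphic pseudogene. Pcdhb1 had values from 0 to 24.2 over the 30 libraries and was the only member that did not reach the minimum mean of 10 set for testing, so 57 genes were tested in every comparison.

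**Figure D1:**
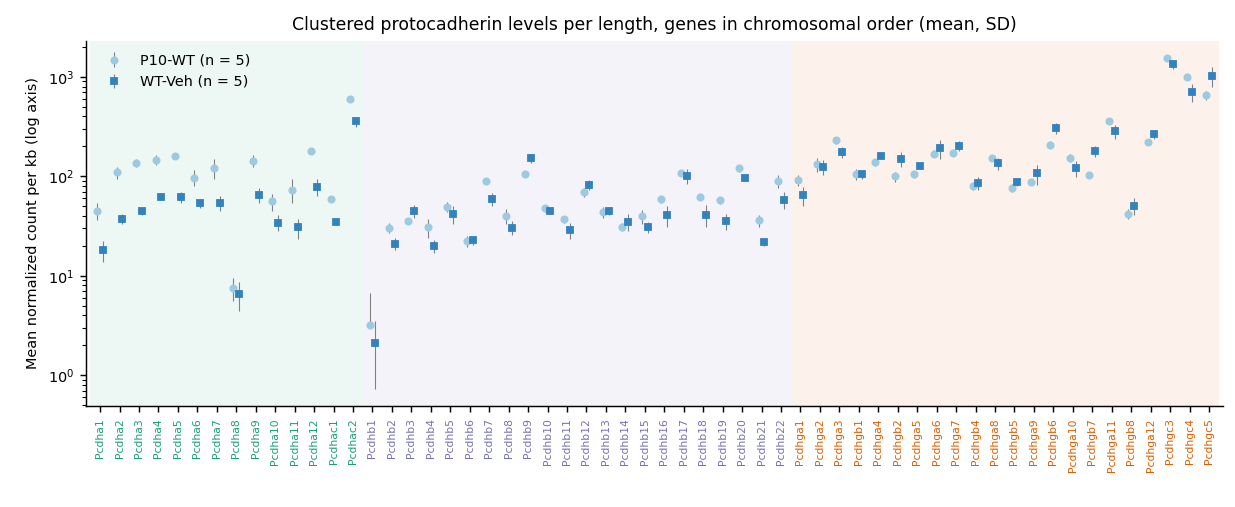
Mean normalized count per kb of transcript (log axis) for the 58 genes in chromosomal order, for P10-WT (circles) and WT-Veh (squares), with SD over 5 mice as bars. The lower bar is not drawn for Pcdhb1 in P10-WT, where the SD exceeds the mean. Pcdhgc3, Pcdhgc4, Pcdhgc5 and Pcdhac2 stand highest, and the alpha genes lie lower in WT-Veh than in P10-WT.

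The 3 clusters took up different amounts of RNA at the 2 ages. In P10-WT brains the summed alpha cluster had 9837 to 11693 normalized counts, the beta cluster 4802 to 5476 and the gamma cluster 27873 to 29464. In WT-Veh brains the alpha sum was 4860 to 5544, the beta sum 3813 to 4758 and the gamma sum 26015 to 30982. The alpha sums of the 2 ages lay far apart, the beta sums were separated by a narrow margin and the gamma sums overlapped. The log2 ratio of the mean sums was -1.04 for alpha, -0.24 for beta and 0.0083 for gamma in WT, and -1.12, -0.33 and 0.21 in HT. As a share of all clustered protocadherin counts, alpha genes had 22.9 to 28.7% in the 10 P10 libraries and 7.27 to 17.0% in the 20 P120 libraries. Gamma genes had 58.1 to 65.6% and 67.9 to 87.1%. The P120 ranges include the fluoxetine groups, and 7.27% and 87.1% were both from HT-Flx replicate 1, so these ranges do not show age alone.

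**Figure D2:**
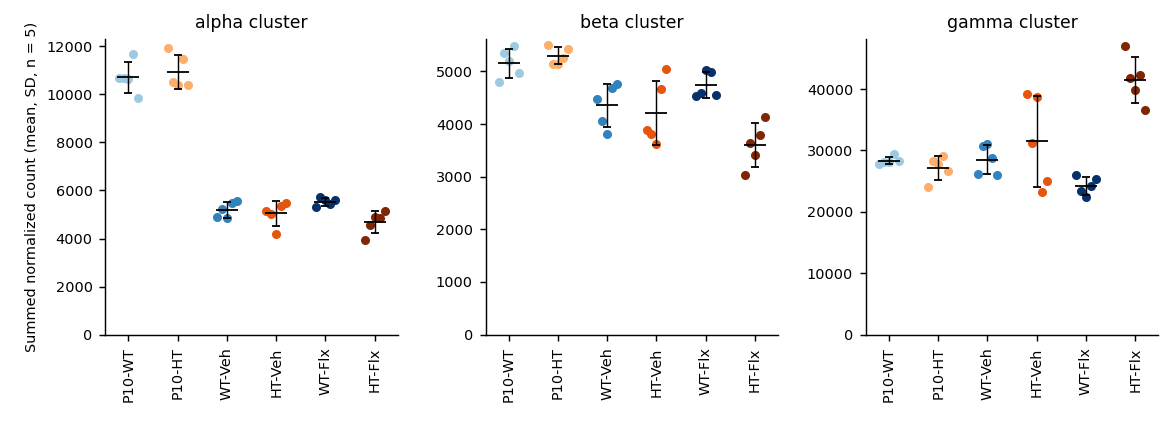
Summed normalized counts of the alpha, beta and gamma clusters in each library, with the mean and SD of each group of 5 mice. Alpha sums are at or above 9837 in every P10 library and at or below 5722 in every P120 library, and gamma sums are 36645 or more in HT-Flx against 26049 or less in WT-Flx.

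Gene by gene, age was compared first between WT-Veh and P10-WT. Of the 57 tested members 41 passed (limma on log2(value + 1), Benjamini-Hochberg adjusted p under 0.05), 10 of them higher and 31 lower at P120. Over all genes tested 58.3% passed, 28.9% higher and 29.4% lower. In the alpha cluster 13 of 14 fell and none rose, with a median log2 fold change of -1.18 against -0.01 over all genes. The remaining gene was the weakly expressed Pcdha8, at -0.20 with an SE of 0.24. In the beta cluster 2 rose and 12 fell, with a median of -0.36, and in the gamma cluster 8 rose and 6 fell, with a median of 0.17. Without WT-Veh replicate 2 the counts were 38 members, 9 higher and 29 lower. Over all genes 4998 were then higher and 5058 lower, against 5174 and 5277 with that library. The P10 and P120 mice also differed in the saccharin water of their dams, in weaning and in the set of libraries, and age and these cannot be told apart.

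Pcdha3, an alpha variable gene, had the largest fall. It had 738, 720, 764, 820 and 631 normalized counts in P10-WT and 242, 223, 212, 258 and 250 in WT-Veh. Every P120 library was far below every P10 library, with a log2 fold change of -1.63 (SE 0.09, limma adjusted p = 1.81e-08). In HT it had 797, 658, 679, 799 and 756 at P10 and 194, 221, 171, 254 and 239 at P120, for -1.78 (SE 0.13). Pcdha2 and Pcdha5 came next in both genotypes, at -1.54 and -1.39 in WT and -1.47 and -1.60 in HT. The groups of both genes did not overlap in either genotype.

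The C-type alpha genes fell less than most of their cluster. Pcdhac2, whose product is known for spacing the axons of serotonin neurons, had 3483, 3679, 3553, 3707 and 3426 normalized counts in P10-WT and 1801, 1944, 2103, 2323 and 2317 in WT-Veh. Its log2 fold change was -0.77 (SE 0.08), with no overlap, and it was -0.80 (SE 0.11) in HT. Pcdhac1 had 318, 308, 322, 338 and 321 in P10-WT and 194, 185, 182, 174 and 199 in WT-Veh, again without overlap, for -0.78 (SE 0.08). In HT its log2 fold change was -0.83 (SE 0.14). As a share of the alpha sum Pcdhac2 had 27.9 to 34.8% in P10 and 36.8 to 43.3% in P120 libraries. No test of the difference between C-type and variable genes was run.

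Among beta genes, which lack constant exons, Pcdhb9 went the other way. It had 328, 338, 318, 318 and 301 normalized counts in P10-WT and 454, 436, 551, 424 and 458 in WT-Veh. All 5 adults were above all 5 pups, with a log2 fold change of 0.53 (SE 0.09, limma adjusted p = 0.000187). The other beta gene that rose in WT was Pcdhb3, at 0.33, whose call was lost when P10-WT replicate 2, P10-WT replicate 3 or WT-Veh replicate 4 was left out. The largest falls in the beta cluster were those of Pcdhb21 at -0.71, Pcdhb19 at -0.71 and Pcdhb18 at -0.64. Pcdhb21 had 138, 192, 171, 157 and 192 in P10-WT and 109, 89.3, 95.9, 110 and 111 in WT-Veh, with no overlap. Its exons are partly shared with Pcdhb22.

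Gamma genes rose and fell within 1 cluster. Pcdhgb7, a gamma B gene, had 480, 452, 500, 517 and 465 normalized counts in P10-WT and 655, 872, 942, 863 and 896 in WT-Veh. These groups did not overlap, and its log2 fold change of 0.80 (SE 0.10) was the largest rise of any member in WT. Pcdhgb2 rose by 0.58 and Pcdhga1 fell by 0.52 on the same scale. Pcdhga3 fell by 0.41. Of the 7 gamma B genes 3 rose and none fell in WT, whereas of the 12 gamma A genes 4 rose and 4 fell.

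The C-type gamma genes split. Pcdhgc5, a C-type gene known to be used mainly by mature neurons, had 3190, 3036, 3076, 2657 and 3572 normalized counts in P10-WT and 5259, 6529, 4721, 3539 and 4259 in WT-Veh. The lowest adult was just under the highest pup, so the groups overlapped, and the log2 fold change was 0.62 (SE 0.14, limma adjusted p = 0.00165, exact permutation p = 0.0159). In HT it had 2829, 2649, 3315, 2574 and 3052 at P10 and 6328, 4801, 7016, 5211 and 4926 at P120. There the groups did not overlap and the log2 fold change was 0.96 (SE 0.13), the largest rise of any member in HT. As a share of the gamma sum Pcdhgc5 had 8.83 to 12.7% in P10 and 12.3 to 23.6% in P120 libraries, fluoxetine groups included.

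Pcdhgc4, which is required for the survival of many neurons, had 4702, 5010, 5045, 5363 and 5113 normalized counts in P10-WT and 3019, 3373, 4594, 3985 and 2848 in WT-Veh. It fell without overlap, by 0.52 on the log2 scale (SE 0.11). Pcdhgc3, the member with the most RNA, fell by 0.22 (SE 0.07), from 7233 to 7467 in P10-WT to 5699 to 7127 in WT-Veh. In HT neither passed, with log2 fold changes of -0.22 for Pcdhgc4 (95% interval -0.90 to 0.46) and -0.09 for Pcdhgc3 (-0.52 to 0.34). HT-Veh libraries were spread widely for both genes, from 2014 to 6368 for Pcdhgc4 and from 4351 to 9562 for Pcdhgc3. After a correction for GC content and length Pcdhgc3 passed in HT, at -0.34 (adjusted p = 0.0304), and Pcdhgc4 did not, at -0.47.

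**Figure D3:**
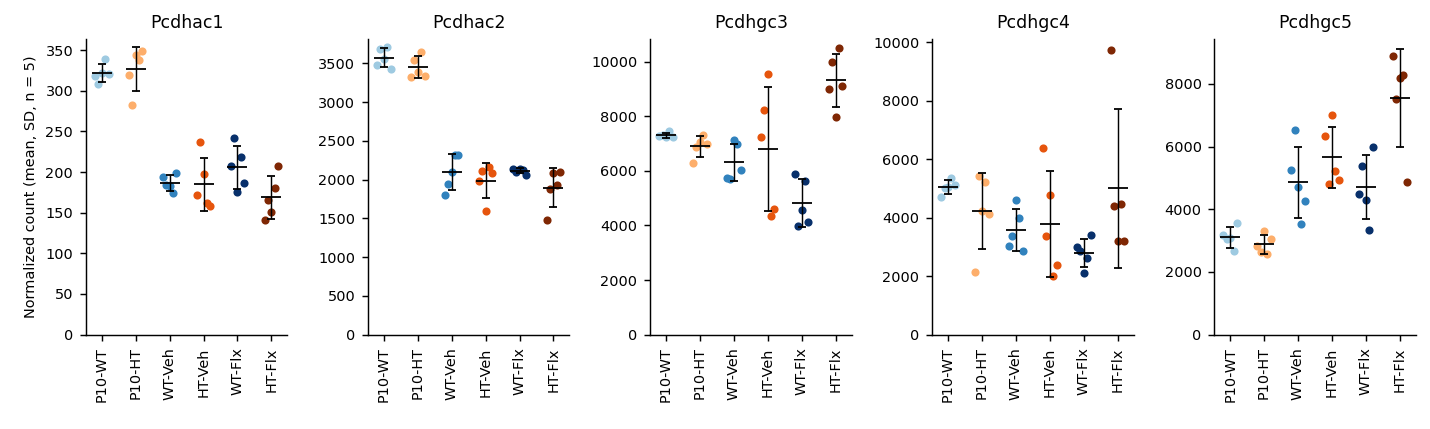
Normalized counts of the 5 C-type genes in each library of the 6 groups, with mean and SD over 5 mice. Pcdhac1 and Pcdhac2 lie lower in every WT-Veh and HT-Veh library than in the P10 libraries, Pcdhgc5 lies higher in all HT-Veh than in all P10-HT libraries, and Pcdhgc4 has 1 library of HT-Flx at 9733.

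In HT-Veh against P10-HT 36 of 57 members passed, 11 higher and 25 lower, beside 51.1% of all genes (25.8% higher, 25.3% lower). In the alpha cluster 12 of 14 fell, with a median log2 fold change of -1.23. Pcdha8 and Pcdha10 did not pass, at -0.16 and -0.50. In the beta cluster 2 rose and 11 fell, with a median of -0.42, and in the gamma cluster 9 rose and 2 fell, with a median of 0.26. Without HT-Veh replicate 2, 31 members passed, 9 higher and 22 lower. Over all genes 4130 were then higher and 4091 lower, against 4634 and 4550 with that library. Pcdhb9 rose by 0.64 and Pcdhb12 by 0.45, while Pcdhb21 fell by 1.08, Pcdhb19 by 1.00 and Pcdhb18 by 0.90. In the gamma cluster Pcdhgb7 rose by 0.85 and Pcdhgb2 by 0.73, and Pcdhga1 fell by 0.68 and Pcdhga3 by 0.43. The calls of Pcdhb12 and Pcdhga3 were each lost in 8 of the 10 fits that left out a library.

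The age comparisons of WT and HT have no library in common. The genes that rose in both were Pcdhb9, Pcdhga4, Pcdhga5, Pcdhgb2, Pcdhgb6, Pcdhgb7 and Pcdhgc5, which are 70% of those that rose in WT and 63.6% of those in HT. The genes that fell in both numbered 24, which is 77.4% of the WT and 96% of the HT list, and 0 moved in opposite directions. These overlaps were counted for members alone, so no share over all genes stands beside them. Of all genes 58.3% passed with age in WT and 51.1% in HT. The difference between genotypes in the age effect passed for 0 of 57 members (0% of all genes; unadjusted p under 0.05 in 2 members and in 3.40% of all genes), and for 0 without both second vehicle libraries. The members with the smallest p in each cluster were Pcdha6 at -0.42, Pcdhb20 at -0.33 and Pcdhgc5 at 0.34 (limma adjusted p = 0.877 each).

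**Figure D4:**
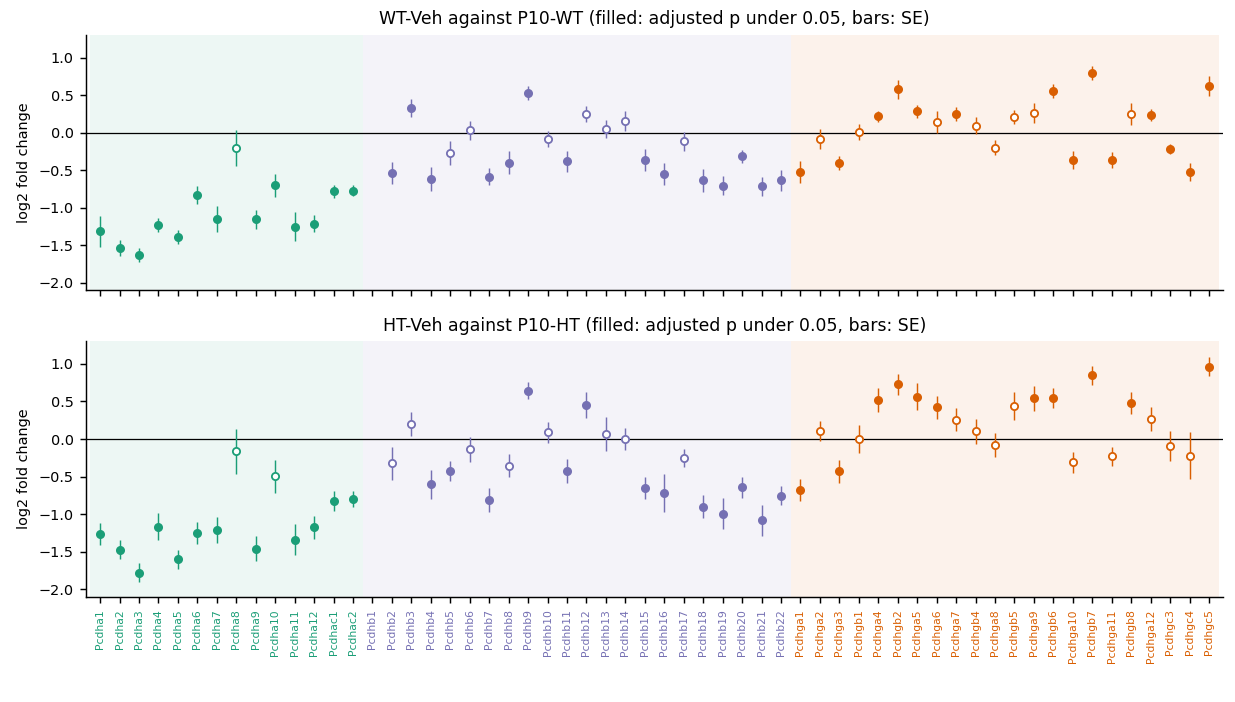
log2 fold change with age for the 57 tested genes in chromosomal order, WT-Veh against P10-WT (top) and HT-Veh against P10-HT (bottom), with SE as bars and filled points for adjusted p under 0.05. Alpha genes run from -1.63 to -0.20 in WT and from -1.78 to -0.16 in HT, while gamma genes lie on both sides of 0. After correction for GC content and length 1 alpha gene, Pcdha8 in HT, has a value above 0.

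Correcting the values for GC and transcript length left the alpha result in place, with the same 13 genes lower in WT and the same 12 in HT, and a median of -1.02 and -0.96. Over all genes 59.7% then passed in WT and 56.0% in HT. Of the beta genes that fell, 6 of 12 in WT and 7 of 11 in HT still passed, and for gamma genes 6 of 8 rises and 6 of 6 falls in WT and 8 of 9 rises and 2 of 2 falls in HT. Genes that passed after the correction alone were Pcdhb14 (higher) and Pcdhga8 (lower) in WT, and Pcdhb3 and Pcdhb14 (higher) and Pcdhga10, Pcdhga11 and Pcdhgc3 (lower) in HT. Other cell types moved with age too. Summed markers of immature neurons and progenitors were 35422 to 63779 in P10-WT and 7745 to 8807 in WT-Veh, with 6 of 6 genes lower, and in HT they went from 40766 to 56104 down to 7572 to 11618. Choroid plexus markers were 11282 to 15513 in P10-WT and 22419 to 33244 in WT-Veh, with 4 of 5 higher. Meningeal markers were 4843 to 24369 in P10-WT and 2200 to 2721 in WT-Veh. The P10-WT top was replicate 1 alone, with the next library at 6381. Of the 4 meningeal genes 4 were lower in WT and 2 in HT. After the correction 2 were lower in WT, and 2 were lower and 1 higher in HT. No list had a marker at 0 in every library, and the part of these cell types in the age result was not tested.

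Genotype was compared at P10 between untreated pups. None of the 57 members passed in limma, beside 0.0224% of all genes, and 5 members and 12.6% of all genes had an unadjusted p under 0.05. The exact permutation test, run on members alone and so without a share over all genes, was under 0.05 for 3 members. Log2 fold changes ran from -0.32 to 0.35, with a median of 0.01 for alpha, 0.04 for beta and -0.02 for gamma genes. The groups of 0 members did not overlap, beside 3.12% of all genes.

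The lowest unadjusted p in each cluster belonged to Pcdha5, Pcdhb6 and Pcdhga1. Pcdha5 had 834, 830, 807, 881 and 857 normalized counts in P10-WT and 1184, 1040, 900, 1105 and 818 in P10-HT. In P10-HT 4 of 5 libraries were above every P10-WT library and 1 was among them, for a log2 difference of 0.25 (SE 0.09, limma adjusted p = 0.326, exact permutation p = 0.0476). Pcdhb6 was at 0.25 and Pcdhga1 at 0.26. Pcdhgc4 had 2157, 5407, 4236, 5208 and 4121 in P10-HT, where replicate 1 was far below the other 4, and a log2 difference of -0.32 (95% interval -0.73 to 0.08). For the other C-type genes the differences were 0.02 for Pcdhac1, -0.05 for Pcdhac2, -0.08 for Pcdhgc3 and -0.11 for Pcdhgc5.

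At P120 in vehicle mice genotype was compared in replicates 1, 3, 4 and 5. None of the 57 members passed in limma, beside 0% of all genes, and 1 member and 1.29% of all genes had an unadjusted p under 0.05 (exact permutation test, 0 members). With all 5 and 5 libraries 0 members passed, and 0 members and 1.14% of all genes had an unadjusted p under 0.05. The member in 4 and 4 libraries was Pcdhgc5, with 5259, 4721, 3539 and 4259 normalized counts in WT-Veh and 6328, 7016, 5211 and 4926 in HT-Veh. The groups overlapped, with 2 HT-Veh libraries above all of WT-Veh, and the log2 difference was 0.40 (95% interval 0.02 to 0.79, exact permutation p = 0.0857). The other clusters had their smallest p for Pcdha8 at 0.62 and Pcdhb20 at -0.28. With 4 against 4 libraries an exact permutation test cannot give a p below 0.0286.

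HT-Veh mice differed among themselves in the gamma cluster. Its sum was 39136, 31297, 38758, 23190 and 25030 normalized counts in replicates 1 to 5. Replicates 1 and 3 lay above the range of WT-Veh, replicates 4 and 5 below it and replicate 2 a little above its upper end. The same libraries differed in their GC slope, the log2 change of a library's values per 10 points of GC content relative to the mean of its age. It was 0.426, 0.132, 0.210, -0.395 and -0.329 in the same order. The part of GC content in the spread of the gamma sum was not tested.

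Fluoxetine was compared within each genotype. In HT mice, HT-Flx against HT-Veh, 0 of 57 members passed in limma (0% of all genes), with an unadjusted p under 0.05 in 16 members and 23.1% of all genes (exact permutation test, 12 members). All 22 gamma genes had a log2 fold change above 0, with a median of 0.40, and the medians were -0.14 for alpha and -0.17 for beta genes. After the GC and length correction the gamma, alpha and beta medians became 0.21, 0.01 and 0.09. Of the gamma genes 20 were then above 0 and 2 below. The groups did not overlap for 5 gamma genes, all higher, which were Pcdhgb1, Pcdhgb4, Pcdhgb6, Pcdhga11 and Pcdhga12, beside 1.62% of all genes without overlap (1.04% higher). Without HT-Veh replicate 2, 0 members passed, 13 members and 18.3% of all genes had an unadjusted p under 0.05 and 5 members did not overlap. Pcdhgb6 had 1726, 1507, 1859, 1187 and 1226 normalized counts in HT-Veh and 2173, 2199, 2196, 2089 and 2211 in HT-Flx. All treated mice were above all untreated ones and close to each other, for a log2 difference of 0.56 (SE 0.14, limma adjusted p = 0.215, exact permutation p = 0.00794, the smallest that 5 against 5 can give). The smallest p of the other clusters belonged to Pcdhb7 at -0.53 and Pcdha2 at -0.34.

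In WT mice, WT-Flx against WT-Veh, 0 of 57 members passed in limma (0% of all genes), with an unadjusted p under 0.05 in 9 members and 25.2% of all genes (exact permutation test, 7 members). Without WT-Veh replicate 2, 0 passed and these were 8 members and 21.2%. All 22 gamma genes had a log2 fold change below 0, with a median of -0.19 against -0.0014 over all genes. The medians were 0.14 for alpha and 0.15 for beta genes. After the correction the gamma, alpha and beta medians were -0.10, 0.07 and 0.01, and 17 of the gamma genes were below 0 and 5 above. The mean GC slope was -0.359 in WT-Flx and -0.092 in WT-Veh, and the signs of gamma genes are again not separate results. Pcdhgc3 had 5745, 5699, 7127, 6972 and 6039 normalized counts in WT-Veh and 5894, 3971, 4571, 5646 and 4128 in WT-Flx. A single treated library lay within the untreated range, at a log2 difference of -0.40 (SE 0.12, limma adjusted p = 0.102, exact permutation p = 0.0317). Pcdhb19 was at 0.34, which the correction took to -0.01, and Pcdha4 at 0.19.

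The most members passed, among the genotype and fluoxetine comparisons, between the 2 treated groups. In HT-Flx against WT-Flx 33 of 57 members passed, 20 higher and 13 lower, beside 63.7% of all genes (33.1% higher, 30.5% lower). The 20 that were higher were all gamma genes, with only Pcdhga1 at 0.25 and Pcdhgb8 at 0.38 not passing, and the gamma median was 0.73 against 0.02 over all genes. In the alpha cluster Pcdha5, Pcdha9, Pcdha10 and Pcdha12 fell and none rose, with a median of -0.27. In the beta cluster 9 genes fell and none rose, with a median of -0.35. Groups did not overlap for 26 members, 18 higher and 8 lower, beside 48.5% of all genes (25.6% higher, 22.9% lower).

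GC content moved with this comparison. The GC slope was -0.409 to -0.312 in WT-Flx and 0.712, 0.406, 0.508, 0.295 and 0.290 in HT-Flx, so the groups did not overlap. After the GC and length correction 18 members passed, 17 higher and 1 lower, beside 35.9% of all genes (20.3% higher, 15.6% lower). They were 14 of the 20 gamma genes that had been higher, Pcdhb7, and Pcdhb3, Pcdhb9 and Pcdhb14, which were higher at 0.42, 0.57 and 0.83. The gamma median went to 0.35, that of alpha to 0.02 and that of beta to 0.01. Pcdha5, Pcdhb17, Pcdhb18 and Pcdhb19, which fell before it, had values above 0 after it.

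Pcdhgb6 had 1355, 856, 1082, 1194 and 1150 normalized counts in WT-Flx and 2173, 2199, 2196, 2089 and 2211 in HT-Flx. Every HT-Flx library was far above the highest WT-Flx library, and the log2 fold change of 0.96 (SE 0.11, limma adjusted p = 3.52e-05) became 0.59 after the correction. Pcdhgc3 had 5894, 3971, 4571, 5646 and 4128 in WT-Flx and 8990, 10000, 7987, 10522 and 9127 in HT-Flx. These too did not overlap, with a log2 fold change of 0.96 (SE 0.12) that became 0.40 (adjusted p = 0.0125). Pcdhgb4 rose by 0.90, Pcdhga10 by 0.87 and Pcdhga12 by 0.85, which became 0.53, 0.50 and 0.50.

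The other C-type genes overlapped between the treated groups. Pcdhgc5 had 4492, 5385, 4305, 3337 and 5981 in WT-Flx and 8872, 7507, 8198, 8266 and 4865 in HT-Flx. In HT-Flx 4 of 5 libraries were above all of WT-Flx, and the log2 fold change of 0.68 (SE 0.18, adjusted p = 0.0053) became 0.12 after the correction and no longer passed. Pcdhgc4 had 3000, 2875, 2121, 2608 and 3399 in WT-Flx and 9733, 4407, 3204, 4482 and 3206 in HT-Flx. Replicate 1 of HT-Flx stood far above the rest, and the log2 fold change of 0.72 (SE 0.26, adjusted p = 0.0271) was 0.45 without that library and still passed. Without WT-Flx replicate 3 it was 0.63 and did not pass (adjusted p = 0.0676). Pcdhac1 was at -0.29, which passed without HT-Flx replicate 5 at -0.36, and Pcdhac2 at -0.17.

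Among the beta genes the largest fall was that of Pcdhb16, at -1.09 (SE 0.30). It had 269, 239, 278, 288 and 227 normalized counts in WT-Flx and 52.9, 146, 94.4, 212 and 169 in HT-Flx, with no overlap, and after the correction it was at -0.24 and did not pass. Pcdhb19 had 318, 316, 348, 326 and 290 in WT-Flx and 104, 183, 128, 205 and 183 in HT-Flx. All treated HT mice were below all treated WT mice, at -1.03 (SE 0.17), and with the correction the value was 0.07. Pcdhb7 had 214, 220, 263, 229 and 225 in WT-Flx and 75.1, 145, 118, 155 and 157 in HT-Flx. It fell without overlap, by 0.86 (SE 0.19), and by 0.52 after the correction. Of the alpha genes Pcdha9 fell by 0.62 and Pcdha12 by 0.36, while Pcdha10 and Pcdha5 were at -0.37 and -0.28. The call of Pcdha5 was lost without WT-Flx replicate 2 or 3 or HT-Flx replicate 2 or 3, and that of Pcdha10 without WT-Flx replicate 2, 4 or 5 or HT-Flx replicate 1.

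**Figure D5:**
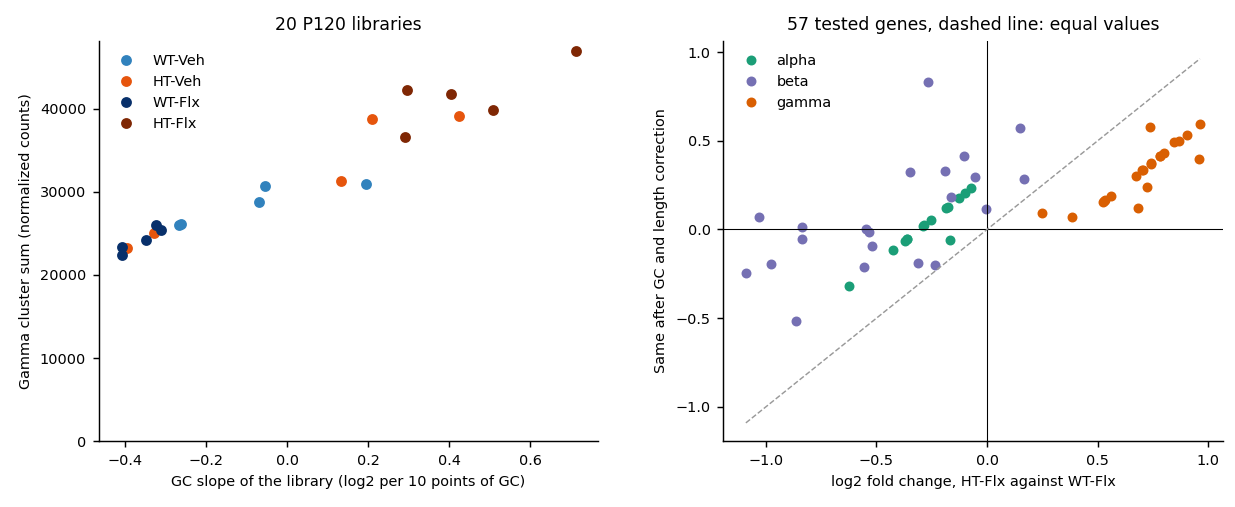
Left, summed gamma cluster against the GC slope of the library for the 20 P120 libraries, and right, log2 fold change of HT-Flx against WT-Flx before and after the GC content and length correction for the 57 tested genes. HT-Flx libraries have slopes from 0.290 to 0.712 and gamma sums of 36645 or more, WT-Flx libraries slopes from -0.409 to -0.312, and all 22 gamma genes stay above 0 after correction, while of the 13 genes that fell Pcdha5, Pcdhb17, Pcdhb18 and Pcdhb19 change from below to above 0.

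Cell type markers also moved between the treated groups, beside 33.1% of all genes higher and 30.5% lower. Summed neuronal markers were 148980 to 165590 in WT-Flx and 97895 to 137860 in HT-Flx, with 2 of 6 genes higher and 4 lower. Markers of immature neurons and progenitors were 7341 to 8460 in WT-Flx and 8692 to 12431 in HT-Flx, with 1 of 6 higher and 4 lower. Erythroid markers were higher for 3 of 5 genes, serotonin neuron markers for 2 of 5, and astrocyte markers for 2 with 3 lower of 5. After the GC and length correction neuronal markers had 0 higher and 1 lower, and immature neuron and progenitor markers 1 and 2. Erythroid markers then had 1 higher, serotonin neuron markers 0, and astrocyte markers 1 higher and 1 lower. Of all genes 20.3% were then higher and 15.6% lower. The part of these cell types in the protocadherin result was not tested.

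HT-Flx was also set against WT-Veh, to see how treated mutants stood beside untreated WT mice. Here 25 of 57 members passed, 18 higher and 7 lower, beside 43.3% of all genes (23.4% higher, 19.9% lower). The 18 were gamma genes (cluster median 0.52), and the 7 were the beta genes Pcdhb5, Pcdhb7, Pcdhb17, Pcdhb18, Pcdhb19, Pcdhb20 and Pcdhb21 (cluster median -0.34). No alpha gene passed, with a median of -0.15. Without both second vehicle libraries 21 passed, 17 higher and 4 lower. Over all genes 3640 were then higher and 2807 lower, against 4138 and 3513 before. The calls of Pcdhb5, Pcdhb17, Pcdhb18, Pcdhb20 and Pcdhgb7 were lost in fits that left out 1 library. Pcdhga9 at 0.72, Pcdhga10 at 0.70 and Pcdhgb6 at 0.61 did not overlap between groups. Of the 57 tested members 17, all gamma genes, were higher without overlap, beside 13.8% of all genes tested. After the GC and length correction 7 passed, all higher, beside 10.0% of all genes (5.87% higher). These were the gamma genes Pcdhga3, Pcdhga7, Pcdhga8, Pcdhga9, Pcdhga10, Pcdhga12 and Pcdhgb6, at 0.34 to 0.46. The beta median after it was 0.03, and Pcdhb17, Pcdhb19 and Pcdhb20 changed sign.

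Whether fluoxetine acted differently in the 2 genotypes was tested as an interaction over the 20 P120 libraries. It passed for 14 of 57 members, 12 gamma genes with values above 0 and the beta genes Pcdhb19 at -0.84 and Pcdhb21 at -0.80, beside 27.3% of all genes (15.8% above 0, 11.5% below). Pcdhgc3 had the highest value at 0.92 (SE 0.25), followed by Pcdhgb6 at 0.91 (SE 0.19) and Pcdhgb4 at 0.89 (SE 0.22), each with a limma adjusted p of 0.0347. Pcdhgc4 at 0.74 and Pcdhgc5 at 0.45 did not pass. The number of calls depended on single libraries, for members and for all genes alike. Without WT-Veh replicate 2, 3 or 4 or HT-Veh replicate 4 or 5, 0 members and 0 of all genes passed. The same held without WT-Flx replicate 2 or 3 or HT-Flx replicate 1. Without HT-Veh replicate 1, 23 members and 7667 genes in all passed. Over the fits that left out 1 library Pcdhgb6 stayed between 0.82 and 0.99 and Pcdhgc3 between 0.77 and 1.06. After the GC and length correction 0 passed in limma (0% of all genes), with an unadjusted p under 0.05 in 10 members and 21.2% of all genes, and Pcdhb19 and Pcdhgc5 changed sign. Without both second vehicle libraries 0 members and 0 of all genes passed as well.

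Relatives and regulators of the clusters were read from lists of genes, beside 28.9% of all genes higher and 29.4% lower with age in WT and 25.8% and 25.3% in HT. Of 13 protocadherins outside the clusters 1 rose and 10 fell with age in WT, from Pcdh1 at 0.51 to Pcdh12, which is known from blood vessel lining, at -3.54, and 2 rose and 10 fell in HT. Of 19 genes for DNA looping and silencing at the clusters (CTCF, cohesin, DNA methylation and demethylation enzymes and related factors) 1 rose and 11 fell with age in WT, with Trim28 at 0.24 and Tet1, a DNA demethylating enzyme, at -2.44, and 12 fell in HT. Of 18 binding partners, co-receptors and proteases 3 rose and 6 fell in WT, with the kinase Ptk2b at 1.62 and Marcks at -1.67, and 4 rose and 5 fell in HT. Of 13 tested genes that neighbour the clusters 5 rose and 4 fell in WT, from Dnd1 at 1.02 to Arap3 at -0.52, and 4 rose and 3 fell in HT. After the GC and length correction these lists had, in the same order, 2 higher and 10 lower, 2 and 5, 6 and 7, and 5 and 5 in WT, and 1 and 9, 2 and 7, 7 and 6, and 5 and 4 in HT. Trim28 no longer passed in WT, at 0.02.

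In HT-Flx against WT-Flx, where 33.1% of all genes were higher and 30.5% lower, 2 of the 13 other protocadherins rose and 8 fell, with Pcdh1 at 0.97 and Pcdh15 at -1.52. Of the 19 looping and silencing genes 4 rose and 11 fell, among them Ctcf at -0.49, the cohesin genes Rad21 at -0.40 and Smc3 at -1.20, the cohesin loader Nipbl at -1.32 and the silencing factor Smchd1 at -1.12, with Trim28 at 0.87. Partners and proteases divided into 7 higher and 7 lower, with the receptor kinase Ret, which binds alpha and gamma proteins, at 1.01. Neighbouring genes divided into 5 higher and 4 lower. After the correction the lists had 2 higher and 2 lower, 1 and 7, 7 and 2, and 2 and 2. Smc3 at -0.41, Nipbl at -0.40, Pcdh15 at -0.85 and Ret at 0.87 then still passed. Ctcf at -0.14, Smchd1 at -0.21, Trim28 at 0.12 and Pcdh1 at 0.21 did not, nor did Rad21, which changed sign to 0.12. In HT-Flx against WT-Veh these 4 lists had 2 higher and 5 lower, 2 and 11, 5 and 5, and 3 and 3, and in the interaction 1 and 5, 2 and 8, 2 and 3, and 4 and 2, beside 23.4% higher and 19.9% lower of all genes in the first and 15.8% and 11.5% in the second. After the correction they had 2 and 1, 0 and 3, 1 and 0, and 0 and 0 in the first, and 0 in the second. Without both second vehicle libraries 0 of all genes, and so none of these lists, passed in the interaction. None of their genes passed in the genotype comparisons at P10 or with vehicle, in either fluoxetine comparison within a genotype, or in the interaction of age and genotype.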

How the data were processed

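The authors quantified paired-end reads against GRCm38 transcripts (Salmon 1.1.0, GC bias correction on), collapsed transcripts to genes (tximport) and scaled the libraries (DESeq2 1.30.1). What they deposited is thus a scaled signal per gene, not whole counts (0.212% of values above 0 were whole within 0.001), so no count model was used. The annotation release of the authors is not given in the sources used here. Identifiers were matched to GENCODE M21 symbols for 99.92% of genes, with GC content and length from the longest protein-coding transcript. RefSeq positions were used only for the identifiers that shared the symbol Pcdha11. ENSMUSG00000007440 is Pcdha10 by position.

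Genes with a mean of 10 or more over the compared libraries were fitted in limma 3.58.1 (R 4.3.3) on log2(value + 1), which understates changes of low genes, with an intensity trend and Benjamini-Hochberg adjustment over all genes tested at 0.05. Exact two-sided permutation tests used 252 splits for 5 against 5 and 70 for 4 against 4. They were run on members alone, so their counts have no share over all genes beside them. GC content and length were corrected by subtracting each library's mean deviation in 10 by 10 bins. The fits were tested on simulated data. Members and lists were chosen with earlier results of these data known. Named were the 5 C-type genes, the 3 largest rises and falls per cluster with age, called members or else the smallest p per cluster in other comparisons, and extremes of level per length. Genes named for a change of call or sign under an alternative were chosen after their values were seen. Genotype with vehicle was compared in the 4 and 4 libraries that a table of the study lists, although its text counts all mice. The labels give separate mice, so p-values measure the spread between them. They name no dam or litter, although the drug was given to dams. Mice that shared a dam would be counted as separate, and litter and drug cannot be told apart. In no comparison did same-numbered libraries all correlate above 0.1, so replicate numbers were not used as pairs.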

Additional observations from a re-analysis of the deposited data

Results flagged for a closer look

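Values of 18 members, the C-type genes and others named in the age comparisons, and of the cluster sums were searched. A library far from the rest of its group of 5 was found in 9 of 126 groups, where chance gives about 1 in 20. Members named only in other comparisons were not searched. Pcdhgc4, a gene needed for neuron survival, had 9733 normalized counts in HT-Flx replicate 1 against 4482 in the next library. That library had the highest GC slope of the P120 libraries, at 0.712. P10-HT replicate 1, where Pcdhgc4 was far below the other libraries, had the lowest slope at P10, at -0.175. The part of GC content in these values was not tested. Pcdhb9 had 550.8 in WT-Veh replicate 3 against 458 in the next, and 355.5 in HT-Flx replicate 4 against 517. Pcdhb18 had 285.3 in P10-WT replicate 1, Pcdhb3 had 211.6 in WT-Veh replicate 4 and Pcdhgb7 had 655.1 in WT-Veh replicate 1. Pcdhga3 had 905.9 in WT-Flx replicate 2 and 1412 in HT-Flx replicate 3. The gamma sum was 2.946e+04 in P10-WT replicate 4.

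The effect of fluoxetine differed between genotypes, by the interaction in limma, for 14 of 57 members, beside 27.3% of all genes. None of the 57 passed without both second vehicle libraries, or when WT-Veh replicate 2, 3 or 4, HT-Veh replicate 4 or 5, WT-Flx replicate 2 or 3, or HT-Flx replicate 1 was left out. In the same fits 0 of all genes passed. The log2 values were -0.8424 for Pcdhb19 and -0.8048 for Pcdhb21. Gamma A genes had 0.5791 (Pcdhga2), 0.5322 (Pcdhga3), 0.6187 (Pcdhga7), 0.6674 (Pcdhga8), 0.6597 (Pcdhga10), 0.5855 (Pcdhga11) and 0.744 (Pcdhga12). Gamma B genes had 0.7737 (Pcdhgb1), 0.8892 (Pcdhgb4), 0.9115 (Pcdhgb6) and 0.4563 (Pcdhgb7), and Pcdhgc3 had 0.9151. After the GC content and length correction none of the 14 passed, and Pcdhb19 was above 0.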

How the results depend on the processing

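The GC content and length correction moved 3 counts of members called, in HT-Flx against WT-Flx from 33 to 18 (11330 to 6398 genes in all), in HT-Flx against WT-Veh from 25 to 7 (7651 to 1774) and in the interaction from 14 to 0 (4852 to 0). With the replicate block as well these were 18, 6 and 0. The interaction was also 0 without both second vehicle libraries. The replicate block alone gave 4 members for HT-Flx against HT-Veh in place of 0 (1355 genes), and 0 comparisons had every library correlate best with its own number. The cause was not tested. Dropping the intensity trend or the filter, raising the filter to 100, adding 5 or 0.1 before the logarithm, median-of-ratios size factors and a joint fit of the P120 groups reversed 0 of the named values and moved 0 of these counts by more than 1.5 times. Leaving out each library gave 0 to 0 members for genotype at P10, with vehicle, for fluoxetine in HT and for age by genotype. Over all genes these fits gave 3 to 8, 0 to 1, 0 to 1 and 0 to 0 in the same order. HT-Flx against WT-Flx had 31 to 39 members and 10500 to 11521 genes in all. Fluoxetine in WT had 0 to 1 members (1, with 1400 genes, without WT-Veh replicate 1). HT-Flx against WT-Veh had 20 to 28 members and 5258 to 8291 genes, and the interaction 0 to 23 and 0 to 7667. Age in WT had 35 to 41 members and 9594 to 10707 genes, and age in HT 30 to 38 and 8128 to 10177.

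Signs changed under the correction, with or without the block. In HT-Flx against WT-Flx Pcdha5 went to 0.02306, Pcdhac1 to 0.01908, Pcdhb17 to 0.003756, Pcdhb18 to 0.01258 and Pcdhb19 to 0.06943. In HT-Flx against WT-Veh Pcdhac1 went to 0.08129, Pcdhb17 to 0.02126, Pcdhb19 to 0.06269 and Pcdhb20 to 0.02663. In the interaction Pcdhb19 went to 0.1271 and Pcdhgc5 to -0.06009, and for fluoxetine in WT to -0.01362 and 0.1585. Pcdhac1 went to 0.02842 for fluoxetine in HT, to -0.004021 for genotype at P10 and to 0.05923 for age by genotype, where Pcdhac2 went to 0.05742. For fluoxetine in WT without both second vehicle libraries Pcdhac2 was -0.008291 and Pcdhgc5 0.06739. With all 5 and 5 vehicle libraries Pcdhgc3 was 0.04256. Leaving out a library spread uncalled C-type values over 0, for age by genotype from -0.1392 to 0.005268 (Pcdhac1), from -0.08187 to 0.04752 (Pcdhac2) and from -0.0136 to 0.2704 (Pcdhgc3). The same held for Pcdhac1 at P10 (-0.00445 to 0.07054), Pcdhac2 with fluoxetine in HT (-0.1477 to 0.01532) and WT (-0.03577 to 0.05602), Pcdhgc5 with fluoxetine in WT (-0.1535 to 0.06984), Pcdhgc3 with age in HT (-0.2311 to 0.0529), and Pcdhgc3 (-0.295 to 0.08358) and Pcdhgc4 (-0.3153 to 0.2382) with vehicle. The cause was not tested. Without a depth, counting error could not be separated from the spread between mice.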
